A study of Setaria viridis with 32 samples.

Results

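In seed heads of *Setaria viridis*, a small C4 grass used as a model for the cereals, 31 of 38334 annotated loci had a transcript level at 8 days after anthesis (DAA) that exceeded every other stage by a set margin in both ecotypes sampled, A.10 and ME034V. The level of a locus was its read count as a share of its library, scaled to counts-per-million (CPM), and the means of 4 libraries were compared. A locus was taken when its 8 DAA mean was at least 5 CPM and, after adding 0.5 CPM, at least 1.5 times the mean of each other stage in both ecotypes. Its 16 DAA mean also had to lie under 500 CPM. The genes that the study had listed, those of sugar transport and metabolism and 28 aquaporins, were set aside. All 31 loci that met these terms were kept, since they were fewer than the 100 sought. The loci were thus chosen by the excess of their mean CPM at 8 DAA over the other stages, which is given as a description with no test.

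RNA was taken from whole seed heads of untransformed plants, harvested at 4 stages: seed heads at 50% emergence, anthesis (flowering), and 8 and 16 DAA. The study describes A.10 as a widely studied genetic model and ME034V as the easier of the pair to transform. Each of the 8 groups (4 stages in 2 ecotypes) had 4 biological replicates, each pooled from 4 plants, which gave 32 poly(A)-enriched libraries. All plants shared 1 growth regime, and the harvest mixed grain with rachis, bristles and glumes, so that more cells of a type and more RNA per cell cannot be told apart.

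After fertilization a grass grain first forms its endosperm, which then fills with starch and storage protein, while the embryo and the maternal layers around it grow and later mature. Storage vacuoles of seeds carry aquaporins of the TIP3 group, and starch synthases extend the glucan chains of starch, so that both serve as marks of filling grain. Of these, *SvTIP3;1* stayed at or below 2.02 CPM in all 16 libraries of the 2 early stages and lay between 67.8 and 963 CPM in all 16 libraries of 8 and 16 DAA. The starch synthase *Sevir.4G021900* went from at most 50.3 CPM in the early libraries to at least 1265 CPM in the late ones. Both markers were thus low in every early library and high in every late one. The locus identifiers of 0 of the 31 loci could be paired with a gene name in the reference table used here, so no role is given for them and they are described by position and level.

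Total counts ran from 4557079 to 21175874 per library. Replicate 3 of ME034V at 16 DAA stood apart from the other 3 libraries of its group. It held more *SvTIP3;1*, 963 CPM against 258 to 275 CPM in the others. It held less of the aquaporin *SvTIP3;3* (41.7 CPM against 95.6 to 146 CPM) and of *Sevir.4G021900* (1265 CPM against 2601 to 2845 CPM). It was also the lowest of its group in 25 of the 31 loci, where it was the lowest in 37.4% of all loci tested. That difference is set in part by the rule, since a low value in this library lowers the 16 DAA mean. Because the markers set it apart, the main comparisons of ME034V at 16 DAA are given with and without it. Replicate 3 of A.10 at 8 DAA was the lowest of its group in 22 of the 31 loci, against 30.5% of all loci, and had the most *SvTIP3;1* of its group (238 CPM against 67.8, 109 and 166 CPM).

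The summed level of the 31 loci was 474 ± 24.8 CPM (SD, n = 4) at 50% seed head emergence and 729 ± 30.4 CPM at anthesis in A.10, and 540.2 ± 15.5 CPM and 752 ± 66.4 CPM in ME034V. It was 2718 ± 351 CPM at 8 DAA in A.10 and 2688 ± 56.0 CPM in ME034V, then 1463 ± 136 CPM and 1437 ± 272 CPM at 16 DAA. Even at their peak the 31 loci made up 0.272% of the counts in A.10 and 0.269% in ME034V. Within A.10 at 8 DAA the 4 libraries held 3080.3, 2945, 2341 and 2504 CPM, a spread wider than that of ME034V (2612 to 2741 CPM). Without replicate 3 the 16 DAA sum of ME034V was 1572 ± 49.7 CPM (n = 3).

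**Figure D1:**
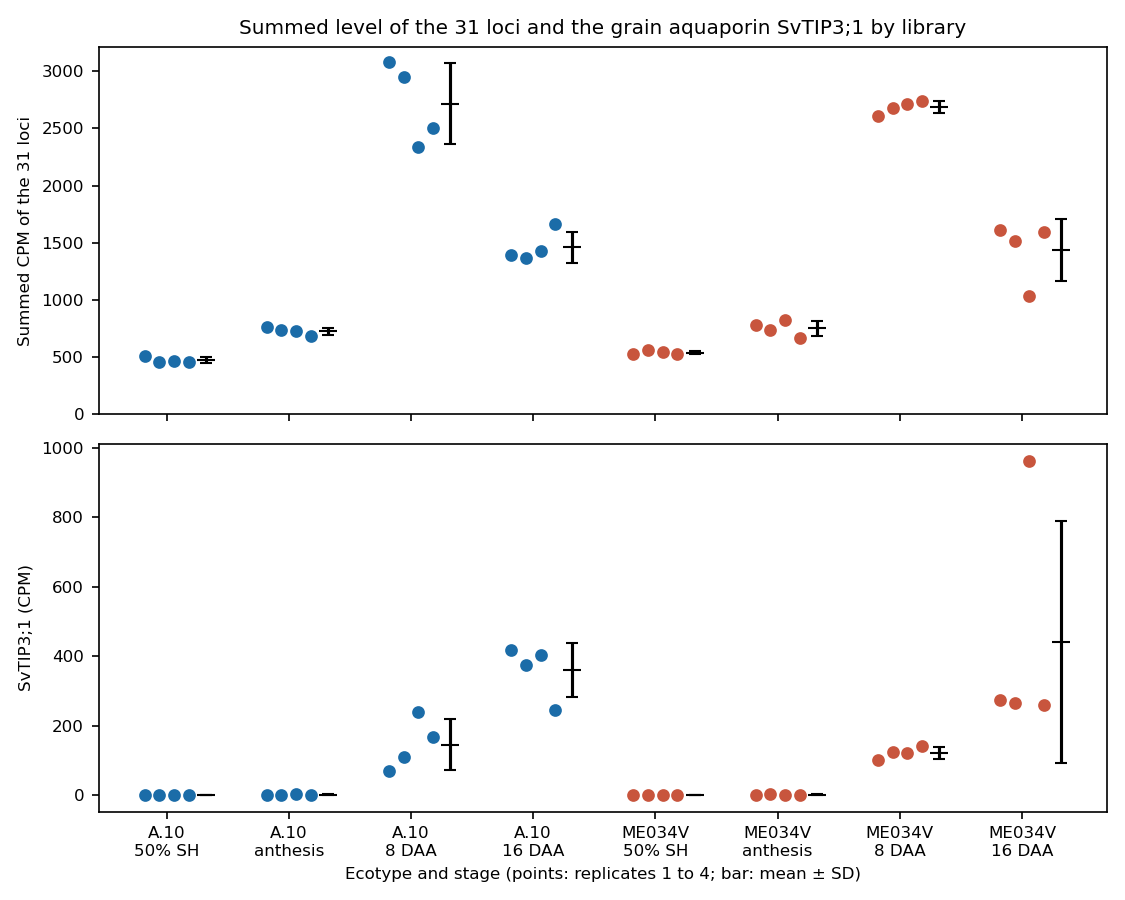
Upper panel, summed CPM of the 31 loci in each library; lower panel, CPM of the grain aquaporin *SvTIP3;1* in the same libraries (points are the 4 replicates of a group, bars the mean ± SD). The sum peaks at 8 DAA in both ecotypes by the choice of loci, and the ME034V library at 16 DAA with 963 CPM of *SvTIP3;1* has the lowest sum of its group, 1034 CPM.

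At 8 DAA in A.10 the order of the 4 libraries by *SvTIP3;1* was the reverse of their order by the sum. This did not hold for the aquaporin *SvTIP3;3* (68.6, 78.9, 73.3 and 81.4 CPM in replicates 1 to 4). Nor did it hold for *Sevir.4G021900* (2341, 3226, 3248 and 3648 CPM). At 16 DAA in A.10, replicate 4 had the least *SvTIP3;1* of its group (246 CPM against 376 to 417 CPM) and the highest sum (1664 CPM against 1370.0 to 1425 CPM). It was the highest of its group in 18 of the 31 loci, against 31.6% of all loci, and with 19063647 counts it was also the deepest library of that group. At 8 DAA in ME034V replicate 4 had instead both the most *SvTIP3;1* (139.9 CPM) and the highest sum (2741 CPM). The part of these differences between replicates in the results was not tested.

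The 31 loci differed widely in abundance. Their 8 DAA means ran from 5.14 to 654 CPM in A.10, with a median of 21.5 CPM, and from 5.63 to 663 CPM in ME034V, with a median of 27.0 CPM. A pair of loci, *Sevir.5G257832* and *Sevir.9G375600*, made up 46.4% of the summed level at 8 DAA in A.10 and 46.5% in ME034V. *Sevir.5G257832* (chromosome 5, 30650705 to 30664934, minus strand, v2.1 annotation) is the longest of the 31 loci, 14230 bp from start to end. It held 607, 703, 641 and 666 CPM in the A.10 libraries of 8 DAA and 573, 707, 642 and 729.8 CPM in those of ME034V. At 16 DAA it held 253 to 323 CPM in A.10, and 359, 311, 97.8 and 174 CPM in ME034V. No library of 16 DAA reached those of 8 DAA in either ecotype.

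*Sevir.9G375600* (chromosome 9, 41262429 to 41267344, minus strand) was already high before anthesis, at 123 ± 11.2 CPM in A.10 and 172 ± 10.2 CPM in ME034V. It reached 608 ± 58.0 CPM and 587 ± 17.0 CPM at 8 DAA, and was at 371 ± 52.6 and 368 ± 30.9 CPM at 16 DAA. Scaled per kilobase of the locus, introns included, the highest at 8 DAA was *Sevir.9G291700* (chromosome 9, 30972652 to 30974077, plus strand) with 195 CPM per kilobase in A.10 and 223 in ME034V. These lay above 99.6% of loci tested in each ecotype. It was followed on this scale by *Sevir.6G033900* (162 and 174), *Sevir.9G375600* (124 and 119), *Sevir.1G250100* (60.0 and 74.6) and *Sevir.8G087400* (93.5 and 39.5), ordered by the mean of both ecotypes. At the other end *Sevir.2G103100* had 1.16 and 1.58 CPM per kilobase.

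**Figure D2:**
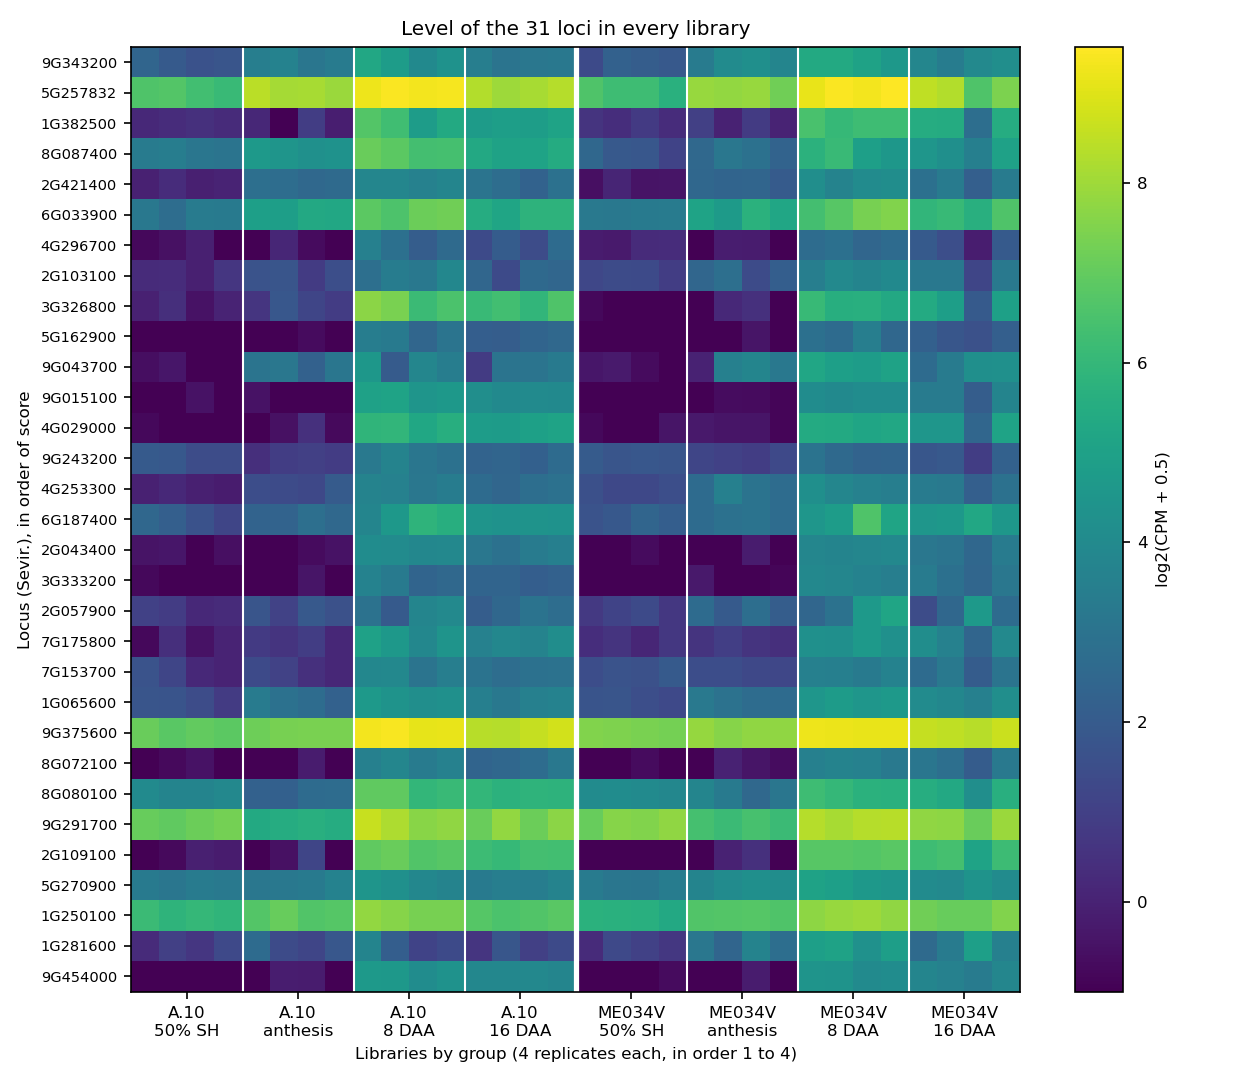
Level of each of the 31 loci (rows, ordered by their smallest ratio of 8 DAA to another stage) in each of the 32 libraries (columns, by ecotype and stage), coloured by log2(CPM + 0.5). Of the 31 rows, 10 have early group means under 1 CPM in both ecotypes and 21 do not. The column of replicate 3 of ME034V at 16 DAA is darker than its neighbours in most rows.

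By their level before grain growth the loci fell into a group of 10 with a mean under 1 CPM at 50% seed head emergence and at anthesis in both ecotypes, and a group of 21 that reached 1 CPM in at least 1 of these means. The 10 loci were *Sevir.1G382500*, *Sevir.4G296700*, *Sevir.5G162900*, *Sevir.9G015100*, *Sevir.4G029000*, *Sevir.2G043400*, *Sevir.3G333200*, *Sevir.8G072100*, *Sevir.2G109100* and *Sevir.9G454000*. Over the 8 early libraries of an ecotype they had between 1 and 42 reads each in A.10 and between 2 and 68 in ME034V. *Sevir.2G109100* (chromosome 2, 10425009 to 10426899, minus strand) had 20 such reads in A.10, 5 of them before anthesis, and 11 in ME034V, all at anthesis. It then held 123, 138, 101 and 111 CPM at 8 DAA in A.10 and 109.6, 109.6, 103 and 113 CPM in ME034V, from 4327 and 3845 reads.

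*Sevir.1G382500* (chromosome 1, 41398590 to 41399885, plus strand) had the highest score of these 10. At 8 DAA it held 102.5, 77.0, 27.8 and 40.9 CPM in A.10 and 90.7, 64.5, 75.2 and 74.7 CPM in ME034V. At 16 DAA the values were 26.6, 29.3, 28.4 and 33.8 CPM in A.10 and 45.6, 44.4, 6.37 and 45.0 CPM in ME034V. The stages overlapped in A.10, where replicate 3 of 8 DAA lay below 3 libraries of 16 DAA, and did not overlap in ME034V. *Sevir.5G162900*, *Sevir.9G015100*, *Sevir.3G333200*, *Sevir.2G109100* and *Sevir.9G454000* each had at least 1 ecotype with no read in any of its 4 libraries of 50% seed head emergence. No fold of 8 DAA over that stage is given for them.

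Among the 21 loci with at least 1 early mean of 1 CPM or more, the highest score of all belonged to *Sevir.9G343200* (chromosome 9, 38193255 to 38195840, minus strand). Its 8 DAA level was at least 2.36 times that of any other stage in both ecotypes, which was set by anthesis in ME034V. It held 39.3, 27.2, 15.3 and 19.8 CPM at 8 DAA in A.10 and 41.0, 41.5, 32.8 and 24.0 CPM in ME034V. Its other stages lay between 2.63 and 12.2 CPM in A.10 and between 2.07 and 18.6 CPM in ME034V, below every library of 8 DAA. *Sevir.2G421400*, *Sevir.6G033900* and *Sevir.8G087400* followed a like course, with means that climbed from 50% seed head emergence to anthesis and again to 8 DAA. *Sevir.6G033900* (chromosome 6, 2882758 to 2883533, minus strand), for one, had means of 8.52, 34.6, 126 and 47.7 CPM over the 4 stages in A.10 and of 9.26, 37.3, 135 and 68.5 CPM in ME034V.

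Another shape was a trough at anthesis. *Sevir.9G291700* had 139.5 ± 15.8 CPM at 50% seed head emergence in A.10, 45.1 ± 3.01 CPM at anthesis and 278 ± 90.2 CPM at 8 DAA, and in ME034V 182 ± 36.1, 78.3 ± 8.98 and 319 ± 23.3 CPM. *Sevir.8G080100* and *Sevir.9G243200* had the same order of means in both ecotypes. In *Sevir.9G243200* the stage nearest to 8 DAA was 50% seed head emergence in ME034V, where the means were 3.14 ± 0.319 and 5.63 ± 1.40 CPM.

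**Figure D3:**
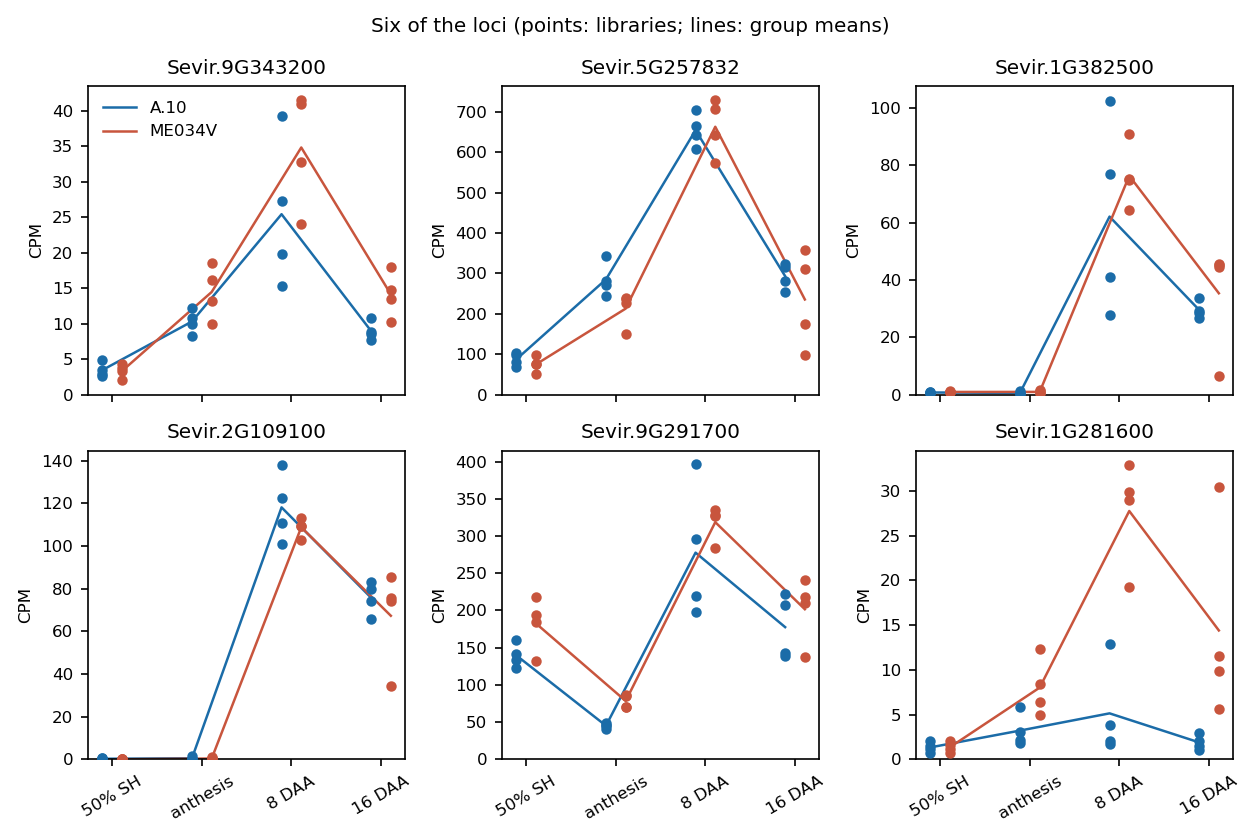
CPM of 6 of the loci at the 4 stages, with a point for each library and lines through the group means (blue, A.10; red, ME034V). *Sevir.1G382500* and *Sevir.2G109100* are near 0 until anthesis, *Sevir.9G291700* dips at anthesis, and *Sevir.1G281600* lies apart between the ecotypes at 8 DAA (1.66 to 12.9 CPM in A.10, 19.2 to 32.9 CPM in ME034V).

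The change from 50% seed head emergence to anthesis was not used to rank the loci and was tested with edgeR on the counts (quasi-likelihood test, Benjamini-Hochberg adjustment over all loci, called at an adjusted p under 0.05). All 31 loci passed the filter on low counts. In A.10, 12 of them rose, where 16.7% of all loci tested did, and 3 fell, where 17.8% did. In ME034V, 11 rose against 10.4% of all loci and 3 fell against 8.14%. Nothing is read from these shares, since the rule used both stages, and 11 of the 31 loci in A.10 and 10 in ME034V would not pass the filter on the early libraries alone. Of the rises, 9 were called in both ecotypes, and the 3 falls were those of *Sevir.9G291700*, *Sevir.8G080100* and *Sevir.9G243200* in each. In ME034V, 2 of these falls were near the threshold: leaving out any 1 of 8 libraries, namely the 4 of 50% seed head emergence, replicates 2, 3 and 4 of anthesis and replicate 3 of 8 DAA, left 1 fall.

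*Sevir.9G043700* (chromosome 9, 2513056 to 2514561, plus strand) showed the largest rise to anthesis, from 0.110 ± 0.136 to 7.17 ± 1.95 CPM in A.10 (log2 fold change 5.42, SE 0.90, edgeR adjusted p = 0.00016) and from 0.182 ± 0.151 to 8.49 ± 5.61 CPM in ME034V (5.38, SE 0.81, adjusted p = 0.00013). In ME034V its libraries of anthesis held 0.497, 11.5, 13.1 and 8.88 CPM, so that 1 of the 4 was near the earlier level. *Sevir.9G454000* had a log2 fold change of 3.68 in A.10 (SE 1.30, edgeR adjusted p = 0.040), against a stage with 0 reads and with 5 reads at anthesis. With 0 reads at the earlier stage the size of that change is not well defined, and its call was lost in 8 of 22 alternatives. *Sevir.2G421400* rose by 3.35 (SE 0.24, adjusted p = 2.7e-08) in A.10 and by 3.81 (SE 0.38, adjusted p = 1.1e-06) in ME034V. The deepest fall was that of *Sevir.9G291700*, with -1.63 (SE 0.19, adjusted p = 3.8e-06) in A.10 and -1.24 (SE 0.16, adjusted p = 2.9e-05) in ME034V.

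Between 8 and 16 DAA, which the rule used, the level left at 16 DAA was 35.2% to 65.2% of that at 8 DAA in A.10 (median 55.9%) and 35.5% to 65.7% in ME034V (median 54.6%). Without replicate 3 the median of ME034V was 64.3% (24.3% to 74.3%). The 16 DAA stage was the nearest to 8 DAA in 27 of the 31 loci, anthesis in 3 (*Sevir.9G343200*, *Sevir.9G043700* and *Sevir.1G281600*) and 50% seed head emergence in *Sevir.9G243200* alone. Every library of 8 DAA lay above every library of 16 DAA in 20 of the 31 loci in A.10 and in 25 in ME034V (26 without replicate 3). Over all loci tested this held for 13.3% and 8.06%, and nothing is read from the difference, since the same libraries chose the loci.

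**Figure D4:**
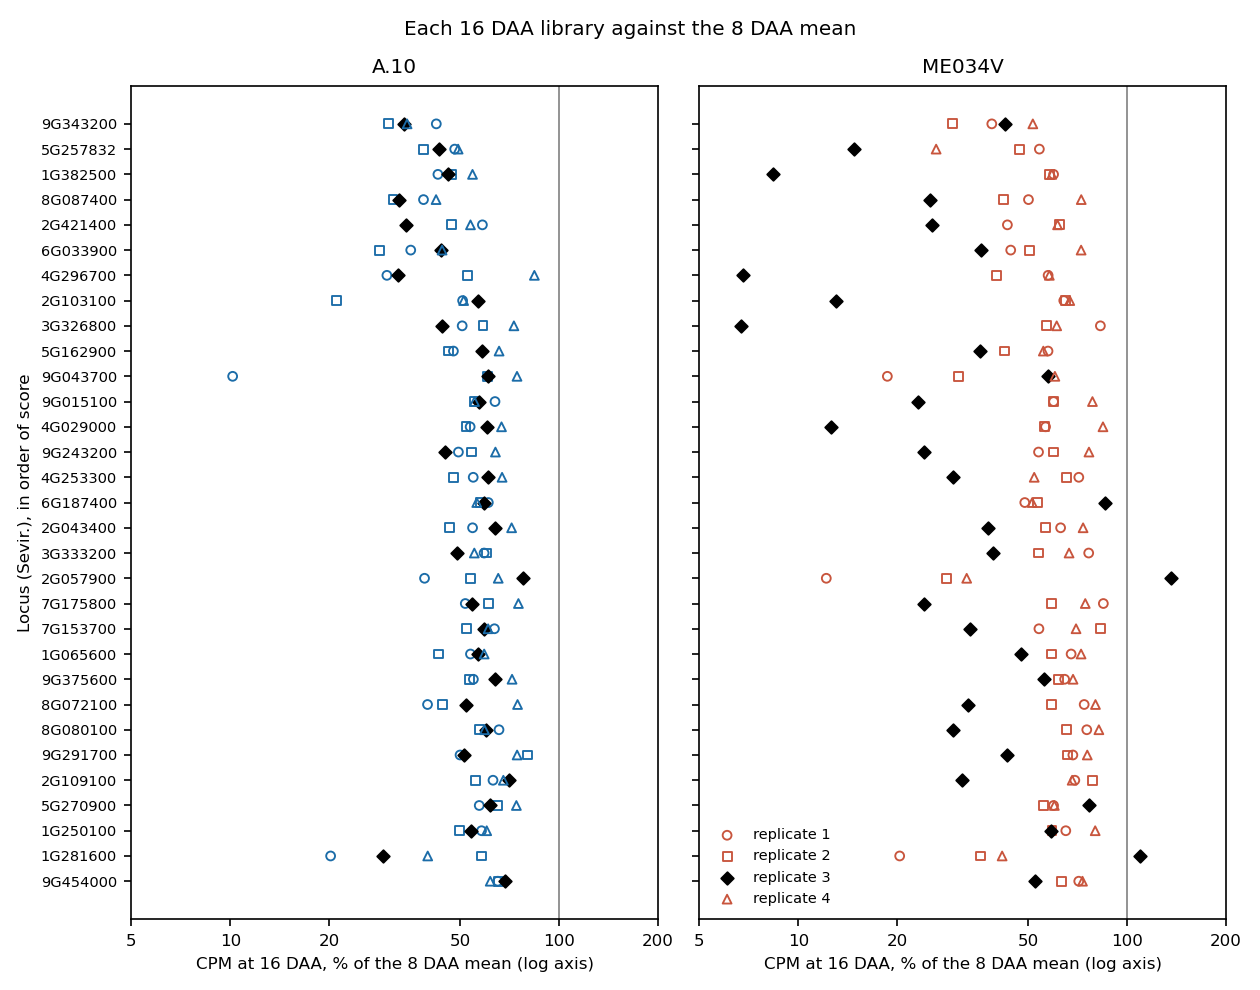
CPM of each locus in each library of 16 DAA as a percentage of its 8 DAA mean, on a log axis, for A.10 (left) and ME034V (right); black diamonds are replicate 3 in both panels. In ME034V the black diamonds lie below the other 3 libraries in 25 of the 31 loci and above them in 4, whereas replicate 3 of A.10 does not stand apart.

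The fall in ME034V was uneven across the loci in replicate 3. In 16 of the 31 loci it held less than 50% of the mean of the other 3 libraries, and for *Sevir.3G326800* it held 3.39 CPM against 28.8 to 42.0 CPM. In *Sevir.2G057900*, *Sevir.1G281600*, *Sevir.6G187400* and *Sevir.5G270900* it was instead the highest of the group, with 24.7 CPM against 2.20 to 5.89 CPM in *Sevir.2G057900*. All 31 loci still had a lower mean at 16 than at 8 DAA in ME034V without that library, but the ratio was 1.5 or more in 18 of them. The other 13, among them *Sevir.3G326800*, *Sevir.9G015100*, *Sevir.8G080100*, *Sevir.9G291700* and *Sevir.2G109100*, do not meet the rule without that library.

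The level left at 16 DAA was also set against the mean of both early stages, on the log2 scale. In A.10, 30 of the 31 loci were higher at 16 DAA and 0 were lower, where 40.4% and 34.8% of all loci tested were. In ME034V, 31 were higher and 0 lower, against 32.4% and 30.2%. At an unadjusted p under 0.05 there were likewise 0 lower in either ecotype, and DESeq2 called 0. Nothing is read from the difference to all loci: the rule used the means of these stages, and the loci near 0 in the early stages passed the filter through the late libraries in which they were high. The values of single loci are given as a description of how far each remained from its early level.

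The locus that did not pass in A.10 was *Sevir.1G281600*, at 1.33 ± 0.548, 3.21 ± 1.83, 5.14 ± 5.27 and 1.89 ± 0.834 CPM over the 4 stages (log2 fold change 0.20, SE 0.53, edgeR adjusted p = 0.74). Its 8 DAA mean in A.10 rested on replicate 1, with 12.9 CPM against 3.88, 1.66 and 2.09 CPM. The next smallest changes in A.10 were those of *Sevir.5G270900* (0.45, SE 0.13, adjusted p = 0.0060), *Sevir.1G250100* (0.54, SE 0.09, adjusted p = 2.5e-05) and *Sevir.9G343200* (0.79, SE 0.22, adjusted p = 0.0031). The largest were those of *Sevir.9G015100*, *Sevir.9G454000* and *Sevir.2G109100*, which had 2, 5 and 20 early reads in A.10 and 16.1 ± 1.14, 14.0 ± 0.591 and 75.8 ± 7.62 CPM at 16 DAA. In ME034V the call for *Sevir.2G057900* was lost without replicate 3 (log2 fold change 0.96, adjusted p = 0.14, against 2.07 and 0.0048 with it), which left 30 loci. The call for *Sevir.9G243200* there (0.62, adjusted p = 0.032) was lost in 5 of 21 alternatives, with an adjusted p of 0.20 without replicate 4 of 16 DAA (0.40) and of 0.052 with no filter on low counts.

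Between ecotypes, levels were compared at 8 DAA and at 16 DAA with edgeR over all 32 libraries. Reads of both ecotypes were counted on the same annotation from unique mappings. The part of mapping in the differences between ecotypes was not tested. At 8 DAA 3 of the 31 loci were higher in ME034V than in A.10 and 5 were lower, where 11.9% and 9.85% of all loci tested were. At 16 DAA 3 were again higher and 5 lower, against 15.8% and 12.6%. The share of loci that differed is near that over all loci. The 5 lower loci were the same at both stages, and 2 of the 3 higher ones were. The rule set a least ratio of 8 to 16 DAA in both ecotypes, and the same fit gave both comparisons. Nothing is therefore read from this overlap.

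*Sevir.1G281600* (chromosome 1, 34501485 to 34502554, minus strand) had the largest excess in ME034V. At 8 DAA it held 29.9, 32.9, 19.2 and 29.0 CPM there and 12.9, 3.88, 1.66 and 2.09 CPM in A.10, with no overlap (log2 fold change 2.37, SE 0.46, edgeR adjusted p = 0.00026). At 16 DAA it held 5.65, 9.93, 30.5 and 11.6 CPM against 1.04 to 2.98 CPM in A.10 (2.86, SE 0.52, adjusted p = 9.7e-05), and without replicate 3 of ME034V the difference was 2.17 (adjusted p = 0.0010). *Sevir.5G270900* was higher in ME034V by 0.64 (SE 0.15, adjusted p = 0.0022) at 8 DAA and by 0.59 (SE 0.16, adjusted p = 0.0049) at 16 DAA, or 0.48 (adjusted p = 0.027) without that library. The call for *Sevir.9G043700* at 8 DAA (1.27, SE 0.46, adjusted p = 0.046) was lost in 20 of 38 alternatives, with adjusted p up to 0.16. *Sevir.1G250100* was higher in ME034V at 16 DAA by 0.50 (SE 0.10, adjusted p = 0.00034), or 0.55 (0.00022) without that library, and had 0.26 (SE 0.10, adjusted p = 0.061) at 8 DAA.

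Of the loci lower in ME034V, *Sevir.3G326800* (chromosome 3, 38486793 to 38488982, minus strand) held 66.4, 47.1, 48.9 and 40.2 CPM at 8 DAA against 208, 168, 70.6 and 93.1 CPM in A.10. Its groups did not overlap, and the log2 fold change was -1.46 (SE 0.36, edgeR adjusted p = 0.0033), which with DESeq2 gave an adjusted p of 0.064. At 16 DAA it was -1.59 (SE 0.38, adjusted p = 0.0017) and -1.23 (adjusted p = 0.0011) without replicate 3 of ME034V, and the call was lost (adjusted p = 0.056) when only the libraries of 16 DAA were fitted.

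*Sevir.8G087400* (chromosome 8, 10156905 to 10158025, minus strand) held 53.9, 70.1, 29.9 and 23.1 CPM at 8 DAA in ME034V against 139, 114, 82.8 and 83.5 CPM in A.10 (-1.29, SE 0.26, edgeR adjusted p = 0.00045). It was lower in ME034V at every stage, with means of 3.32 and 9.08 CPM at 50% seed head emergence and 6.33 and 21.5 CPM at anthesis. *Sevir.9G015100* held 15.3 to 16.8 CPM at 8 DAA in ME034V and 22.1 to 33.8 CPM in A.10 (-0.82, SE 0.22, adjusted p = 0.0064). *Sevir.9G243200* had -0.75 (SE 0.21, adjusted p = 0.011) and *Sevir.8G080100* -0.68 (SE 0.22, adjusted p = 0.025). Leaving out replicate 2 of A.10 at 8 DAA ended the last 2 calls (adjusted p = 0.078 and 0.13). The call for *Sevir.8G080100* was also lost without replicate 1 of that group, which left 4 lower and 6 higher loci, without replicate 3 or 4 of ME034V at 8 DAA, and with only the libraries of 8 DAA in the fit.

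**Figure D5:**
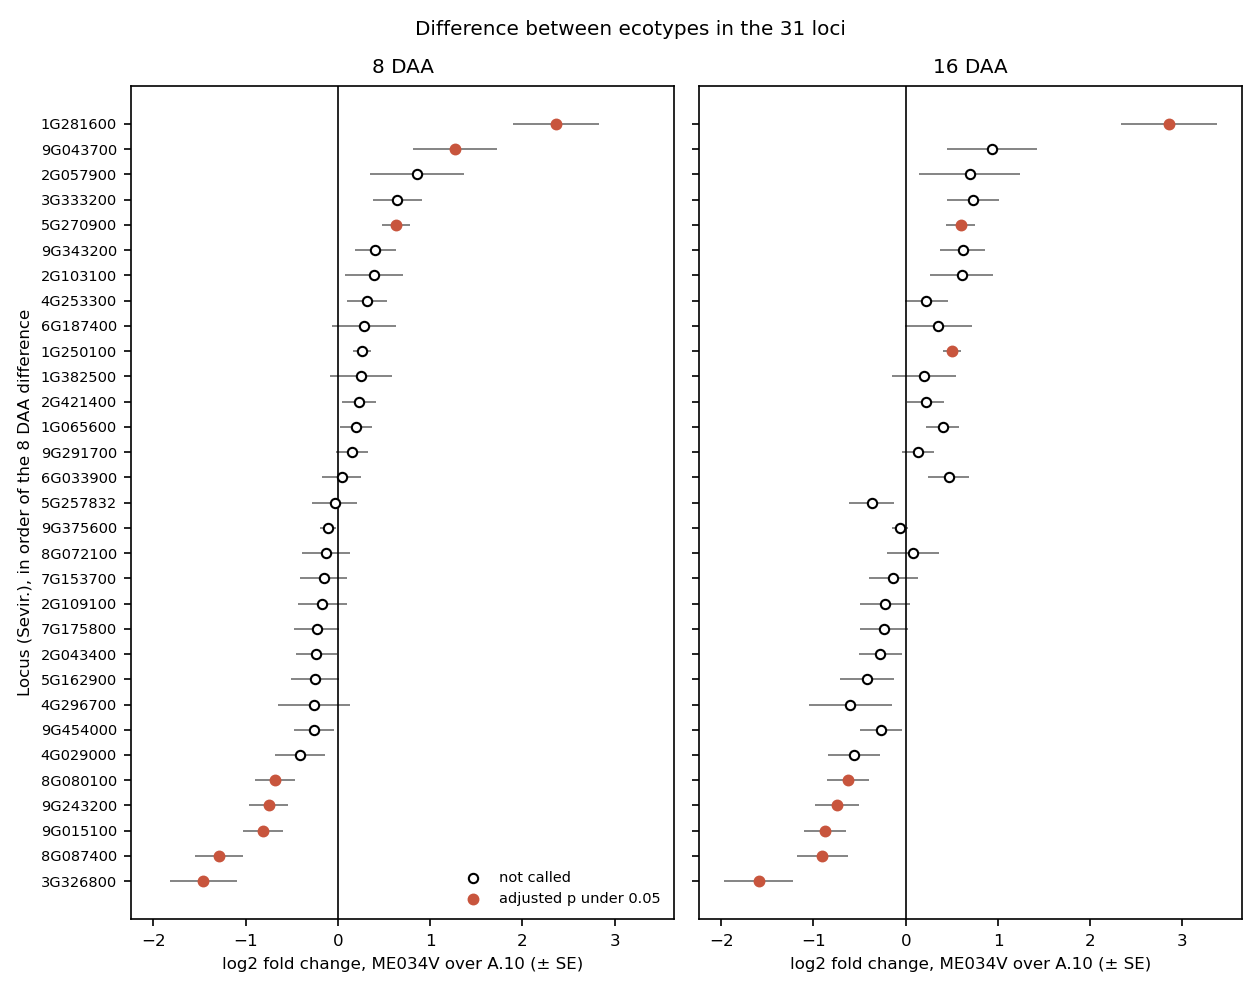
Log2 fold change of ME034V over A.10 (± SE) for each of the 31 loci at 8 DAA (left) and 16 DAA (right), ordered by the 8 DAA value; filled points have an edgeR adjusted p under 0.05. At each stage 3 loci are called to the right of 0 and 5 to the left, from -1.46 for *Sevir.3G326800* to 2.37 for *Sevir.1G281600* at 8 DAA.

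At 16 DAA the counts rested in part on replicate 3 of ME034V. Without it 7 loci were higher in ME034V and 2 were lower (*Sevir.3G326800* and *Sevir.9G015100*), the loci gained being *Sevir.6G033900*, *Sevir.2G103100*, *Sevir.3G333200* and *Sevir.1G065600*. *Sevir.8G087400* had -0.90 (edgeR adjusted p = 0.014) with that library and -0.70 (0.052) without it. *Sevir.9G243200* had -0.75 (adjusted p = 0.018) and -0.51 (0.078), and *Sevir.8G080100* had -0.63 (adjusted p = 0.037) and -0.40 (0.13). With only the libraries of 16 DAA in the fit, 1 of the 5 lower loci, *Sevir.8G087400*, was still called. Without replicate 4 of A.10 at 16 DAA 3 loci were lower, and the call for *Sevir.8G080100* was lost in 6 of 38 alternatives in all.

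The change from the early stages to 16 DAA differed between ecotypes in 6 of the 31 loci, 2 with a larger rise in ME034V (7.4% of all loci tested) and 4 with a smaller one (6.19%). The rule used the means of these stages in both ecotypes, so nothing is read from these shares. Values of single loci are given as a description. *Sevir.4G253300* (chromosome 4, 35760282 to 35765135, minus strand) showed the largest shortfall: its log2 fold change was 2.66 in A.10 and 1.11 in ME034V, a difference of -1.54 (SE 0.33, edgeR adjusted p = 0.0019), or -1.35 (0.0033) without replicate 3 of ME034V at 16 DAA. Its 16 DAA means were 6.13 ± 0.885 CPM in A.10 and 7.49 ± 2.54 CPM in ME034V, and its early means were 0.485 and 2.48 CPM in A.10 and 2.17 and 7.77 CPM in ME034V. *Sevir.1G250100* rose by 0.54 in A.10 and 1.35 in ME034V (difference 0.82, SE 0.13, adjusted p = 5.6e-05, or 0.86 and 3.2e-05 without that library). The differences of *Sevir.1G281600* (2.20, SE 0.70, adjusted p = 0.034) and *Sevir.9G243200* (-0.95, SE 0.31, adjusted p = 0.038) were near the threshold. The first was lost in 8 of 38 alternatives (adjusted p up to 0.11) and the second in 11 of 38 (up to 0.093), among them DESeq2 (0.055). Both were lost without replicate 3 of ME034V at 16 DAA (adjusted p = 0.11 and 0.08), where *Sevir.2G421400* was gained, which left 2 larger and 3 smaller rises.

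Before the limit on 16 DAA, 34 loci met the ratio and the level, and 3 with 500 CPM or more at 16 DAA were left out. One of them, *Sevir.3G253900*, had 4808 ± 1237 CPM at 8 DAA in A.10 and 3736 ± 409 CPM in ME034V, above any of the 31 loci. Taken singly, 147 loci met the ratio and level in A.10 and 163 in ME034V, after the same exclusions, and the 31 shared loci are 21.1% and 19.0% of these. The member nearest to the limit of the ratio was *Sevir.9G454000*, with a smallest ratio of 1.52, and the nearest locus outside was *Sevir.5G461100*, with 1.496. A further 14 loci met the ratio but not the level of 5 CPM. The nearest of these to the level was *Sevir.7G197900*, with 4.32 CPM at 8 DAA in A.10 and 15.8 CPM in ME034V. Its smallest ratio, 2.95, was above that of any of the 31 loci.

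Of the listed genes set aside, aquaporins among them, 0 met the thresholds of ratio and level in both ecotypes. The sugar genes cover the path from sugar transport by SUT and SWEET carriers through cleavage of sucrose by invertase and sucrose synthase to starch synthesis. The last part holds ADP-glucose pyrophosphorylase, starch synthase and starch branching enzyme, which adds the branches of amylopectin. In A.10 alone 2 of 4 starch branching enzyme loci met them, and in ME034V 0 of 4 did. The nearest was the ADP-glucose pyrophosphorylase locus *Sevir.6G130500*, with 1651 and 1151 CPM at 8 and 16 DAA in A.10 and 1153 and 838 CPM in ME034V. The starch branching enzyme *Sevir.1G181900* had 1744 and 1069 CPM in A.10 and 966 and 720.3 CPM in ME034V.

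The 31 loci lay on all 9 chromosomes, with 7 on chromosome 9 and 5 on chromosome 2. The closest pair, *Sevir.3G326800* and *Sevir.3G333200*, was 27 loci apart, so no members were neighbours. Their median length was 2586 bp against 3332 bp over all loci tested, and 15 were on the plus strand. *Sevir.2G103100* overlapped *Sevir.2G103200*, which matters for counts taken without strand. *Sevir.6G187400* was next to the alpha-amylase locus *Sevir.6G187500*, *Sevir.8G087400* was 2 loci from the aquaporin *SvSIP1;1*, and *Sevir.3G333200* and *Sevir.9G243200* were each 4 loci from a listed gene, the SWEET carrier *SvSWEET13a* and a starch synthase.

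Of the 62 loci that flank the 31, 36 had at least 1 CPM at 8 DAA in both ecotypes, and 9 of these, 25.0%, had their highest mean at 8 DAA in both, where 11.0% of all loci at that level did. They lay beside 8 of the 31 loci and were looked at after their values were seen. *Sevir.9G043600*, 3385 bp from *Sevir.9G043700*, had 20.9, 5.40, 11.5 and 10.0 CPM at 8 DAA in A.10, where *Sevir.9G043700* had 23.4, 3.52, 13.5 and 10.6 CPM, so the 2 loci were high and low in the same libraries. Whether reads are split between near-identical copies there was not tested. *Sevir.4G028900*, beside *Sevir.4G029000*, had at most 0.253 CPM in any early library and 18.6 CPM at 8 DAA in A.10 and 23.1 CPM in ME034V. On the other side, *Sevir.4G029100* had 13.2 to 25.4 CPM at 8 DAA in ME034V and at most 1.05 CPM in A.10. *Sevir.1G250200*, 146 bp from *Sevir.1G250100*, had 95.7 CPM at 8 DAA and 60.2 CPM at 16 DAA in A.10, and 104 and 86.1 CPM in ME034V.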

How the data were processed

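The authors trimmed paired reads from poly(A) RNA of whole seed heads (Trim Galore), aligned these by Subjunc of Subread 1.6.2, kept unique mappings and counted them per locus with featureCounts (1.5.0-p1 per the file headers) without strand. The deposited counts hold whole reads for 38334 loci (annotation v2.1 of *S. viridis*). The length given there is that of the whole locus, introns included, so levels per kilobase understate loci with long introns, and exon number was not analysed. The deposited tables of log2 FPKM were not used.

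CPM was the count over the library total. Loci were tested in R 4.3.3 by the quasi-likelihood test of edgeR 4.0.16 with TMM, where at least 3 libraries had a CPM above 1, with 16 libraries per ecotype, or all 32 where ecotypes were compared. Benjamini-Hochberg adjustment covered all tested loci. The tests were repeated with DESeq2 1.42.0, with edgeR on DESeq2 size factors, without the filter, with a stricter one (4 or more libraries with a CPM above 5), with the replicate number as a block, with other sets of libraries in the fit and without each library in turn, and, for the list, TMM-scaled CPM and added values of 0.1 or 1 CPM. The scripts were tested on simulated data. The members and lists were chosen with earlier results of these data known. Named loci are the 15 of highest score, the 5 highest per kilobase (design: per exon length), the largest changes of each comparison, the members nearest to the limits, and listed sugar genes that met or came nearest to the thresholds. Other loci (flanking members, near 0 early, or with a call that changed) were named after their values were seen.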

Additional observations from a re-analysis of the deposited data

Results flagged for a closer look

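In groups of 4 libraries, 10 of 132 had 1 library whose gap to the nearest of the others as a share of the group's range passed the critical value of Dixon's test for 4 samples, where chance gives about 1 in 20 groups. The groups were the summed level at every stage and the CPM of each of the 31 loci at 8 and 16 DAA, and loci share libraries, so these are not independent. The rule also used the means of these groups, so nothing is read from the number that passed. The summed level stood apart in replicate 1 of A.10 at 50% seed head emergence (510.4 CPM, highest) and in replicate 3 of ME034V at 16 DAA (1034 CPM, lowest). That ME034V library was also lowest for *Sevir.1G382500* (6.37 CPM) and *Sevir.2G103100* (1.76 CPM), and highest for *Sevir.6G187400* (38.9 CPM) and *Sevir.2G057900* (24.7 CPM). *Sevir.2G103100* had its lowest A.10 value at 16 DAA in replicate 2 (2.09 CPM). At 8 DAA in ME034V, replicate 2 was lowest for *Sevir.9G015100* (15.3 CPM), and replicate 3 was highest for *Sevir.6G187400* (97.6 CPM) and *Sevir.7G175800* (24.5 CPM).

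The change from the early stages to 16 DAA differed between ecotypes in 6 loci by the test of the difference itself (log2, ME034V minus A.10). It was 2.20 for *Sevir.1G281600* (edgeR adjusted p = 0.034), 0.82 for *Sevir.1G250100* (adjusted p = 5.6e-05), -1.54 for *Sevir.4G253300* (adjusted p = 0.0019), -1.03 for *Sevir.8G080100* (adjusted p = 0.021), -0.95 for *Sevir.9G243200* (adjusted p = 0.038) and -0.44 for *Sevir.9G375600* (adjusted p = 0.0058). The calls for *Sevir.1G281600* and *Sevir.9G243200* were lost in 8 and in 11 of 38 alternatives. Since the rule used the means of these stages in both ecotypes, nothing is read from the number of calls.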

How the results depend on the processing

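With TMM-scaled CPM 26 of the 31 loci remained, with 0.1 CPM added 31 and with 1 CPM added 29. With each of the 32 libraries left out between 18 and 31 remained, the fewest without replicate 3 of ME034V at 16 DAA and the next fewest, 22, without replicate 1 of A.10 at 8 DAA. 12 loci were kept in every one of these fits and with TMM. No called value changed its sign in an alternative run, whereas some values that were not called did. At 16 DAA the loci higher in ME034V numbered 5 with DESeq2, with the replicate block and with only the libraries of the groups compared (3 in the main result), and with the last of these 1 was lower (5 in the main result). With 1 library left out, counts ranged from 2 to 6 (higher in ME034V) and 3 to 5 (lower) at 8 DAA, and from 3 to 7 and 2 to 6 at 16 DAA. From 50% seed head emergence to anthesis they ranged from 11 to 13 higher and always 3 lower in A.10, and from 10 to 12 and 1 to 3 in ME034V. For 16 DAA against the early stages 30 were higher in every fit in A.10 and 30 to 31 in ME034V, and for the ecotype difference 1 to 3 larger and 3 to 5 smaller rises. The cause was not tested. Same-numbered libraries deviated together with a correlation of -0.15 to 0.18 in A.10 and -0.21 to 0.27 in ME034V, so the numbers were not taken as pairs, and the replicate block brought 6 calls of single loci past the threshold and ended 2. Counts limit loci near 5 CPM.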
